A study of Mus musculus with 24 samples.

Results

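Dimethylation of lysine 4 on histone H3 (H3K4me2) was examined at gene ends that carried a peak in every H3K4me2 library of mouse embryonic stem (ES) cells and embryoid bodies (EB), wild type and Prdm16 knockout (KO). Overlapping peaks of the 8 H3K4me2 lists on chromosomes 1 to 19, X and Y were merged into 43393 regions. A region was taken when all 8 lists had a peak in it and an annotated start or end of a RefSeq protein-coding gene lay inside it or within 2500 bp. This gave 7072 gene-end regions, 16.3% of all regions, 46.2% of the 15301 regions at a gene end and 82.6% of the 8562 regions present in all 8 lists. The members were therefore chosen by their H3K4me2 peak calls, so that presence in the lists is a description and not a result. Widths, score ranks and H3K4me1 peaks were not part of the rule. Width and score are still tied to it. Every peak in a list scored at least 50, and a wider region reaches a gene end or a peak of another list more easily.

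The series profiled H3K4me2, H3K4me1 and the zinc finger protein PRDM16 by CUT&RUN, in which a nuclease tethered by an antibody releases the DNA fragments that are sequenced. All cells were of C57BL/6 background. ES cells were kept with LIF on Matrigel, and EB, aggregates in which ES cells leave pluripotency, were taken on day 6 of differentiation. The 4 H3K4me2 groups were ES wild type, ES Prdm16 KO, EB wild type and EB Prdm16 KO, with 2 libraries each, and the H3K4me1 and PRDM16 antibodies were used in the same 4 groups, for 12 groups and 24 libraries in all. The labels describe neither the deleted part of Prdm16 nor the number of clones. Nor do they state whether replicate libraries were grown separately, so every p-value here reflects differences among libraries that could be technical.

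H3K4me2 is laid down by the MLL/SET1 family of methyltransferases. It lies around active and poised promoters, flanking the trimethylated nucleosomes next to the start, and at enhancers, whereas H3K4me1 without H3K4me3 is typical of enhancers and of promoter borders. Promoters with many CpG dinucleotides recruit H3K4 methylation through CXXC-domain proteins, and most housekeeping genes start in such CpG islands. PRDM16 belongs to a family with a PR/SET domain and is best known as a factor of brown fat, craniofacial and blood stem cell development.

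Several facts of the lists bear on what follows. The H3K4me2 lists held 13818 to 32874 peaks, with fewer in EB than in ES. The lowest score in every list was at least 50, on a scale that no label or header explains. Read totals were not analysed, so library depth is unknown. By their titles, replicate 2 of ES KO and replicate 2 of EB wild type belong to another library series than the remaining 6 H3K4me2 libraries. Peak calls at marker genes did not separate the stages: of 12 ES cell marker genes, 4 had a peak in all 4 ES lists and 4 in all 4 EB lists, and Sox2 had none in any list. Pou5f1, the core pluripotency factor, had a peak in 0 ES lists and in 3 EB lists. Of 15 germ layer markers of EB, 6 had a peak in all 4 ES lists and 2 in all 4 EB lists, and Gata6, Pax6, Sox1, Hand1 and Tal1 had none in any. Of 5 fibroblast or feeder markers, Col1a1, Col1a2, Thy1 and Twist2 lay at members and Postn had no peak. The part of such cells in the results was not tested. At Prdm16 itself, H3K4me2 was called within 2500 bp of a gene end in 1 of the 8 lists, an ES KO list, so the gene lay at no member and these lists give no check of the deletion.

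Promoter sequences of 6 members show the range of CpG content that gene-end regions covered. They are RefSeq promoters, 250 bases before to 50 bases after the annotated start, from GRCm38.p6, which has the coordinates of mm10. CpG dinucleotides are in capitals. Sh3rf3 and Pgr were among the 10 members with the highest lowest score rank, Wnt2 had H3K4me1 in all 8 lists, Pramel13 differed most between ES cells and EB, and Morc2a and Lpar4 were shorter in KO than in wild-type EB.

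Sh3rf3 (chr10:58813109-58813408, plus strand): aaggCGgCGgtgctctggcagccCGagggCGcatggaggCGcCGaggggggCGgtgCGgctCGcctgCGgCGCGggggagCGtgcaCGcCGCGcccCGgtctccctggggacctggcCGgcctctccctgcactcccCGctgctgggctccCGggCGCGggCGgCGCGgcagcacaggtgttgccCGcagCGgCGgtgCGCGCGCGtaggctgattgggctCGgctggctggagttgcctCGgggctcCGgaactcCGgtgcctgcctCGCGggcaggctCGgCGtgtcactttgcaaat
Morc2a (chr11:3649187-3649486, plus strand): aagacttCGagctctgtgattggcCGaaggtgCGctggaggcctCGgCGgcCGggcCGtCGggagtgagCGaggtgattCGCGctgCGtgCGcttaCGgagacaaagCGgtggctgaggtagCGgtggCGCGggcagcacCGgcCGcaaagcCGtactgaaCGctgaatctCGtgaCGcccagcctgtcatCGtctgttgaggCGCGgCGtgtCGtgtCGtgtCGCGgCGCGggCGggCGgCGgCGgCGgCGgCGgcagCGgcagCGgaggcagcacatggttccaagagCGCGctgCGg
Wnt2 (chr6:18030396-18030695, minus strand): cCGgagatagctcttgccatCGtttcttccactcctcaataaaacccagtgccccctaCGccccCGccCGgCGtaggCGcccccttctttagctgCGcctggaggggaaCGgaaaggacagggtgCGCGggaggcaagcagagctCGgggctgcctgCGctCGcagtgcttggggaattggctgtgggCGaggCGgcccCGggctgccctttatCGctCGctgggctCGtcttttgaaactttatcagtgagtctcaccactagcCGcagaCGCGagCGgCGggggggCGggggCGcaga
Pgr (chr9:8899583-8899882, plus strand): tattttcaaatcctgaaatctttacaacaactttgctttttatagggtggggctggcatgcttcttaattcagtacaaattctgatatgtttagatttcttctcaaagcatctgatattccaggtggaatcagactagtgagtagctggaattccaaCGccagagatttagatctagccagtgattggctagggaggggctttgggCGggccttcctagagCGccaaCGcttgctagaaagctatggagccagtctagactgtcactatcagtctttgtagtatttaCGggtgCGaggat
Pramel13 (chr4:144408415-144408714, minus strand): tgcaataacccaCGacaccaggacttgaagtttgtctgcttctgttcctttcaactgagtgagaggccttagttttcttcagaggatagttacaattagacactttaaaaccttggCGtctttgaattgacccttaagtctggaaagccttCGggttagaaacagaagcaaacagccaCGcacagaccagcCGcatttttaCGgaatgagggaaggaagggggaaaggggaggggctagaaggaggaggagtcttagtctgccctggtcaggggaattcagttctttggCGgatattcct
Lpar4 (chrX:106920375-106920674, plus strand): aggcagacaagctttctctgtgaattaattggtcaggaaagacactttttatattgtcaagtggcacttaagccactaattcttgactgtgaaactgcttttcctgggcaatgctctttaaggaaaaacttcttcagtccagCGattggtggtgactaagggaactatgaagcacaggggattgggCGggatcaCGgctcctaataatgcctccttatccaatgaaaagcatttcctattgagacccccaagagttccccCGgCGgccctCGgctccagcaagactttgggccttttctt

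The Morc2a sequence held 46 CpG and Sh3rf3 held 40, against 6 in Pgr, 6 in Lpar4 and 7 in Pramel13. Of the motifs searched on both strands, the GC box (GGGCGG) occurred in all of the 6 but Pramel13, and the TATA box (TATAAA) in Pgr and Lpar4. Sh3rf3, an SH3-domain ubiquitin ligase, and Pgr, the progesterone receptor, thus both stood at the top of the score ranks with very different CpG content. A match is a description of the letters in this window only.

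Over all RefSeq promoters that the table gives, CpG number differed most between promoters with and without an H3K4me2 peak. It differed less between promoters at members and those near another peak. Among 7084 promoters with a start within 2500 bp of a member the median was 22 CpG (interquartile range 14 to 30), against 17 at 6984 promoters near another H3K4me2 peak and 3 at 7195 promoters with none. At least 10 CpG were found in 87.7% of the first, 68.8% of the second and 14.6% of the third set. The share of promoters at a member was 4.81% with 0 to 4 CpG, 18.4% with 5 to 9 and 43.5% with 10 to 14. Above that it levelled off, at 51.1% with 15 to 19 and 55.6% with 35 to 39 CpG. The 217 members on chromosome 18 were not analysed for promoters here, and promoters of neighbouring genes are not independent of each other.

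**Figure D1:**
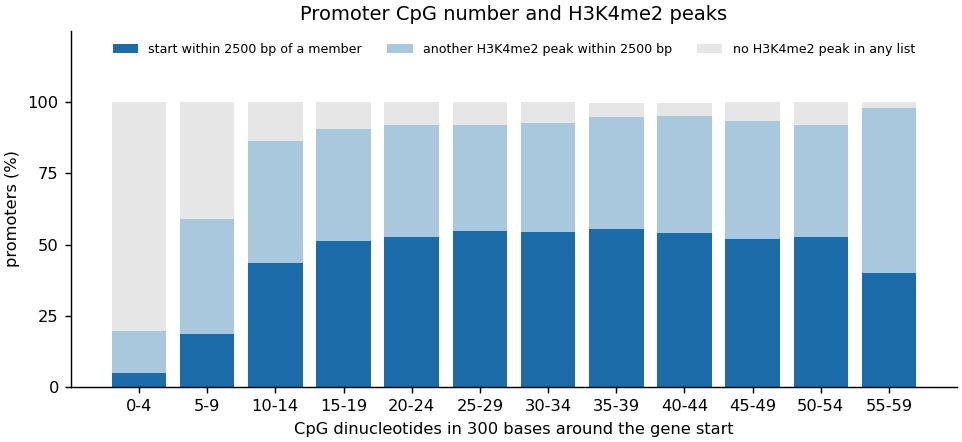
Share of RefSeq promoters (y, percent) by the number of CpG dinucleotides in the 300 bases around the start (x), divided into those within 2500 bp of a gene-end region of all 8 lists, those near another H3K4me2 peak and those with no peak. The share at gene-end regions goes from 4.81% in the lowest class to 51.1% at 15 to 19 CpG and changes little above, apart from the 50 promoters of the last class with 40%.

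Motif content differed in the same order. The GC box was in 66.9% of promoters at members, 57.4% near another peak, 14.9% with no peak and 46.2% of all promoters. The ETS core (CCGGAAG), read by GABPA and other ETS factors, was in 19.1%, 12.3%, 3.45% and 11.6%, and the NRF1 core (GCGCATGCG), of a factor for mitochondrial genes, in 4.25%, 2.26%, 0.57% and 2.35%. The TATA box ran the other way, with 6.11% at members, 8.15% near another peak and 23.3% with no peak. The CCAAT box (CCAAT) hardly varied, at 37.8%, 37.4% and 39.4%. The YY1 core (AAGATGGC) was in 4.33% of promoters at members and 3.05% of all, the E box (CACGTG) in 9.87% and 7.84%, and the cAMP response element (TGACGTCA) in 3.49% and 2.23%. Since CpG-rich motifs occur more often in CpG-rich sequence, these shares are not separate from the CpG numbers.

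Gene-end regions lay over starts in most cases. A gene end was inside 6728 members (95.1%), and the other members, which are named here by the nearest gene, were within 2500 bp of one. Of the 6855 members outside chromosome 18, 5506 (80.3%) had a listed gene start within 2500 bp, and 442 (6.45%) a pair of divergent starts within 1000 bp. In all, 8245 of 21887 protein-coding genes (37.7%) had an end at a member. A single gene was within reach of 5573 members, 2 genes of 1376 and 3 or 4 genes of the others. Near the 2500 bp limit, 37 members lay over 2000 bp from a gene end, with a median width of 3760 bp, and 35 regions of all 8 lists lay just outside, up to 3000 bp away, with a median of 4089 bp. The part of regions at a gene end was 13.4% among regions found in 1 list only and 82.6% among those in all 8, and the 1250 gene-end regions in 7 lists had a median width of 5778 bp.

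Classes of genes were represented very unevenly. Of the 38 classes examined, the highest shares at members were those of vacuolar protein sorting genes, which route vesicles to endosomes and lysosomes (28 of 35 genes, 80%), subunits of Integrator, which cleaves nascent transcripts (11 of 14, 78.6%), and aminoacyl-tRNA synthetases (27 of 37, 73%). DNA replication licensing and fork proteins followed with 30 of 43 (69.8%), proteasome subunits with 33 of 49 (67.3%), Mediator with 20 of 30 (66.7%) and spliceosome proteins with 37 of 61 (60.7%). Zinc finger genes of the Zfp series, many of them KRAB repressors of transposons, had 237 of 397 (59.7%), and mitochondrial ribosomal proteins 46 of 78 (59%). All these lay above the 37.7% of all protein-coding genes. Cytosolic ribosomal proteins, although housekeeping genes, were at 30 of 86 (34.9%).

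Several other classes had a lower share than the 37.7% of all genes. Of 25 pluripotency genes, 3 were at members, Klf4, Lin28a and Stat3, and 4 had no H3K4me2 peak in any list. Of 39 Hox genes, which set position along the body axis, Hoxd1 alone was at a member, and 22 of 116 Sox, Fox, Pax, Tbx, Lhx and related developmental transcription factors (19%) were. Wnt, Fgf and Bmp ligands had 16 of 52 (30.8%), Polycomb proteins 8 of 30, replication-dependent histones 10 of 62 and cytochrome P450 enzymes 15 of 93. Of 1110 olfactory receptor genes 1, Olfr94, had an end at a member, and of 353 vomeronasal receptors 0. Not every class of tissue-specific genes was low: solute carriers had 159 of 385 (41.3%), and potassium, sodium and calcium channels 54 of 132 (40.9%). These are counts of a chosen set, given without a test.

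**Figure D2:**
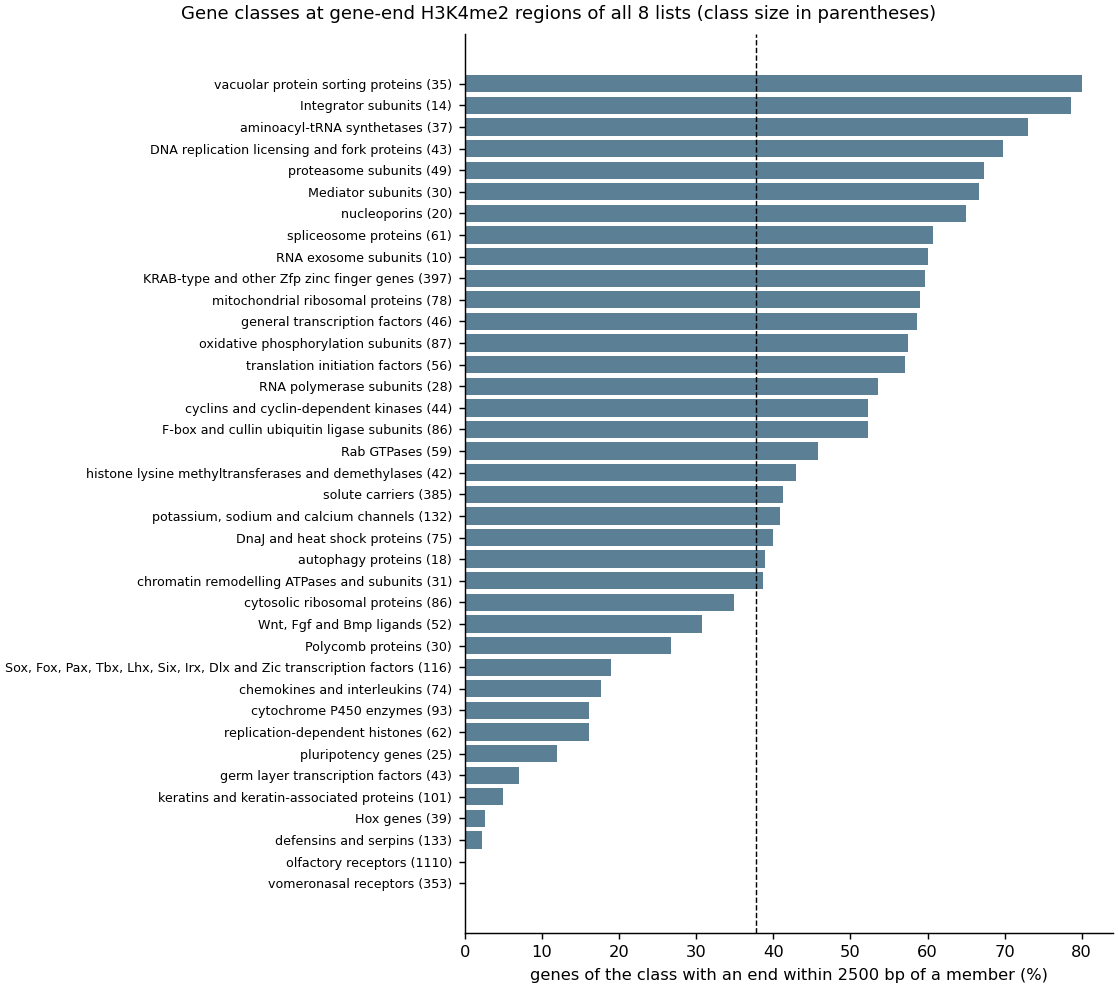
Share of each gene class with an end within 2500 bp of a gene-end region of all 8 lists (x, percent), for 38 classes with the number of genes in parentheses. The dashed line marks 37.7%, the share of all protein-coding genes, and shares run from 80% for vacuolar protein sorting genes to 0 for vomeronasal receptors.

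The merged regions had a median width of 4587 bp (interquartile range 3516 to 5871), from 835 bp near Apool to 16047 bp near Pdia4, and covered 33.7 Mb. Of the members, 214 were 8000 bp or wider and 106 were 2000 bp or narrower. Width rose with the number of genes, from a median of 4409 bp with 1 gene to 5055 bp with 2 and 6377 bp with 3 or 4, and was 5362 bp at divergent pairs. Genes were counted up to 2500 bp beyond a region, so a wider region takes in more of them by construction.

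The widest member (chr6:47777993-47794039) held no gene end and was a member through the window of 2500 bp, 2102 bp from the nearest end, that of Pdia4, a disulfide isomerase of the endoplasmic reticulum. Its peaks covered 10462 and 9379 bp in the ES wild-type lists, 14159 and 13977 bp in ES KO, 4488 and 6221 bp in EB wild type and 4758 and 4742 bp in EB KO. Every ES list thus had more of this region under a peak than any EB list. At Srf, the serum response factor (chr17:46542948-46558495, 15548 bp), the order was the reverse for most lists. The covered length there was 8049 and 5787 bp in ES wild type, 9719 and 10345 bp in ES KO, 12663 and 14187 bp in EB wild type and 8949 and 10078 bp in EB KO, so that ES KO and EB KO overlapped. Smoc1, a secreted matrix protein, had 14786 bp, and its covered length ranged from 1642 bp in EB KO replicate 1 to 12246 bp in ES KO replicate 1. The others of the 10 widest were at Tma7, Leprotl1, Grb2, Barhl1, Sar1b, Dgkh and Fam13c.

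Within members, H3K4me2 peaks extended further into the gene than away from it. At the 5355 members that held the start of their named gene, the peak over the start reached a median of 918 to 1403 bp upstream and 1621 to 2276 bp downstream, depending on the library. The share of starts under a peak was 95.7% to 99.2% in the ES lists and EB wild type, and 87.9% and 89.6% in the EB KO lists. In all 8 libraries the highest share lay 150 to 450 bp downstream of the start. The median share of a region under a peak was 68% and 65.2% in ES wild type, 78.1% and 72.5% in ES KO, 79.9% and 88.1% in EB wild type, and 56.9% and 63% in EB KO. More than 1 peak lay in 340 and 180 members in the EB KO lists, against 46 to 144 in the other 6.

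H3K4me1 peaks were placed differently. Their share was highest 850 to 1150 bp downstream of the start in each of the 8 libraries, and at the start it was 0.493 to 0.688 of that maximum. In EB a further rise of H3K4me1 lay 550 to 650 bp upstream, with a minimum near the start between them. In EB wild-type replicate 1, 4.92% of starts were under an H3K4me1 peak, 9.97% of the positions 1150 bp downstream and 5.53% of those 550 bp upstream.

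**Figure D3:**
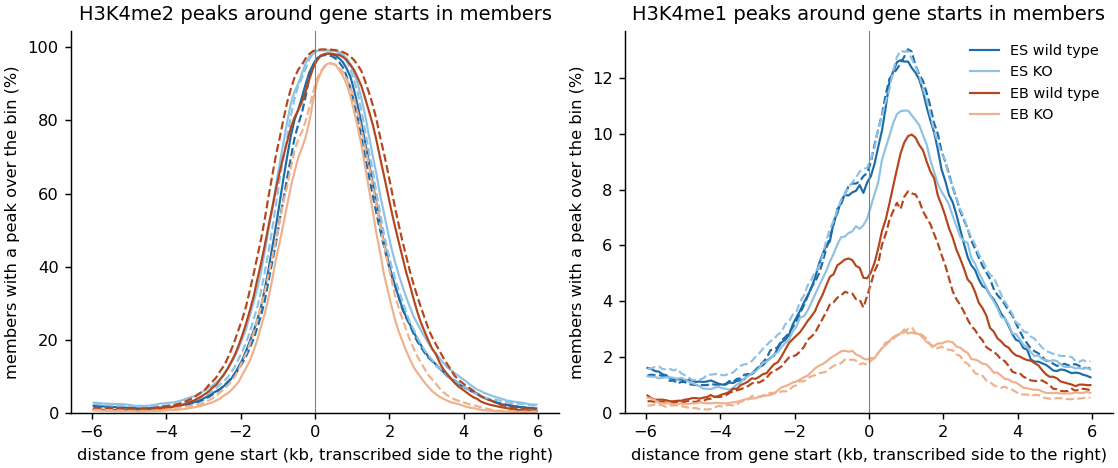
Share of members with an H3K4me2 peak (left) or an H3K4me1 peak (right) over each 100 bp bin (y, percent), by distance from the gene start in kb, with the transcribed side to the right. Solid and dashed lines are replicates 1 and 2 of each group. H3K4me2 is highest just downstream of the start, and H3K4me1 850 to 1150 bp downstream.

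Between stages, the length of H3K4me2 was compared as the base pairs of a region under peaks in each library, on the log2 scale and with each library's median over the 8562 regions of all 8 lists set to 0. With limma and Benjamini-Hochberg adjustment over those 8562 regions, 812 members (11.5%) were longer in EB, beside 12.2% of all regions tested, and 1066 (15.1%) were longer in ES cells, beside 16% of all regions tested. The members make up 82.6% of those regions, which fixes much of this nearness. Of the 1490 distal regions of all 8 lists, which have no gene end within 2500 bp, 15.4% were longer in EB and 20.5% in ES, and the difference between members and distal regions was not tested. The median log2 difference over members was -0.02, and over all regions tested also -0.02. Without the 2 libraries of the other series, an alternative chosen after the data had been seen, 169 members were longer in EB and 335 in ES, of which 168 and 321 were among the calls above. Leaving out ES KO replicate 1 gave 417 and 643, ES KO replicate 2 gave 438 and 658, and without ES wild-type replicate 2 or EB wild-type replicate 1 the members longer in EB were 520 and 524.

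Of the members longer in ES, Pramel13, of the PRAME-like family, had the largest difference (chr4:144402298-144409014). Its peaks covered 6288 and 6148 bp in ES wild type, 6683 and 6056 bp in ES KO, 1128 and 1660 bp in EB wild type and 970 and 764 bp in EB KO. The log2 difference was -2.56 ± 0.15 (SE; adjusted p = 0.000147), and H3K4me1 was called there in 4 of 4 ES lists and 0 of 4 EB lists. Deptor, an inhibitor of mTOR (chr15:55111454-55122338), had 6071, 8762, 9068 and 10338 bp in ES against 2469, 2467, 2211 and 1604 bp in EB (log2 difference -1.99 ± 0.18, adjusted p = 0.00034). Its H3K4me1 peaks too were in 4 of 4 ES lists and 0 of 4 EB lists. Tex14, needed for the bridges between germ cells, had 3589 to 4732 bp in the ES lists and 837 to 1840 bp in the EB lists (-1.77 ± 0.12, adjusted p = 0.000147). Pola1, the catalytic subunit of DNA polymerase alpha, had 4498 to 5791 bp in ES and 886 to 2477 bp in EB (-1.81 ± 0.13, adjusted p = 0.000147). Gm14325, Gm20939, Klhl34, Cdkl4, Ranbp17 and AA414768 were the others of the first 10. No ES list overlapped the EB lists at these 4 genes.

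Among members longer in EB, Adamts6, a secreted metalloprotease (chr13:104285000-104290845), stood first. It had 776 and 888 bp under peaks in ES wild type, 1223 and 649 bp in ES KO, 5318 and 5818 bp in EB wild type and 4205 and 4436 bp in EB KO (log2 difference 2.49 ± 0.18, adjusted p = 0.000147). Irgm1, an interferon-induced GTPase, had 1452 to 1974 bp in ES and 4458 to 5109 bp in EB (1.56 ± 0.11, adjusted p = 0.000147). Greb1l, a factor of kidney development, had 1450 to 1947 bp in ES and 4530 to 6883 bp in EB (1.73 ± 0.12, adjusted p = 0.000147), with H3K4me1 in 0 ES and 4 EB lists. Car2, a carbonic anhydrase, had 1678 to 2070 bp in ES and 3575 to 6923 bp in EB (1.56 ± 0.18, adjusted p = 0.000722), again with H3K4me1 in 0 ES and 4 EB lists. The others were Usp18, which removes the interferon-induced modifier ISG15, Plat, the tissue plasminogen activator, Rnf43, a ubiquitin ligase that removes Wnt receptors, Skap1, Syt13 and Mogat2. The stage groups did not overlap at any of the 4 genes given with values.

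H3K4me1, which had no part in these calls, differed with them in direction in wild type. At members longer in ES, an H3K4me1 peak was found in 40.3% and 38.4% in the ES wild-type libraries and in 15.1% and 12.2% in EB wild type. At members longer in EB the shares were 19.8% and 17% in ES wild type and 32.9% and 30.7% in EB wild type. At members without a call they were 26.4% and 23% in ES and 21% and 18.4% in EB. The ES KO shares (36.5% and 36.2% at members longer in ES, 17.9% and 17.5% at those longer in EB) were close to those of ES wild type. In EB KO they were 7.97% and 6.38% at members longer in ES and 16.9% and 13.8% at members longer in EB. In KO the shares at members longer in EB were therefore lower in EB than in ES. Members without a call were also lower, at 22.1% and 22.6% in ES KO and 9.84% and 7.53% in EB KO. The mean share in KO went from 17.67% in ES to 15.33% in EB at members longer in EB. It went from 22.36% to 8.683% at members without a call and from 36.35% to 7.176% at members longer in ES. The H3K4me1 and H3K4me2 libraries are different libraries of the same groups.

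Gene classes differed in their stage calls. Of the 30 members at cytosolic ribosomal protein genes, 22 (73.3%) were longer in ES and 0 in EB, against 15.1% and 11.5% of all members. Rpl36a had a log2 difference of -1.25 (adjusted p = 0.000276), Rpl5 of -1.15 (adjusted p = 0.000341) and Rps3a1 of -1.14 (adjusted p = 0.00118), while Rpl22l1 (-0.07) and Rps27l (0.09) were not called. Their regions were wide, with a median of 6968 bp. Of 34 members at replication licensing and fork genes, 13 were longer in ES, among them Mcm3 (-0.75, adjusted p = 0.00381), Mcm6 (-0.50, adjusted p = 0.018) and Pola1, and 0 were longer in EB. For proteasome subunits the counts were 9 longer in ES and 1 in EB of 34, for translation initiation factors 9 and 1 of 33, for aminoacyl-tRNA synthetases 7 and 0 of 29 and for Zfp genes 47 and 13 of 236. Wnt, Fgf and Bmp ligands had 1 longer in ES and 5 in EB of 16, channels 3 and 10 of 56, and vacuolar protein sorting genes 6 and 7 of 30. At Hoxd1, 2125 to 2872 bp were covered in ES and 4759 to 6055 bp in EB (1.12 ± 0.11, adjusted p = 0.000407). Klf4, a reprogramming factor, was longer in ES (-0.73 ± 0.22, adjusted p = 0.0385), although 6183 bp in EB wild-type replicate 2 came close to the 6337 bp of ES wild-type replicate 1. Stat3, which carries the LIF signal, had 6484 to 7903 bp in ES and 2268 to 4435 bp in EB (-1.09 ± 0.17, adjusted p = 0.00264).

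The deposited score of each peak, the authors' own value, was used only for its rank. Each member's highest peak score in a list was written as a percentile among the 8562 regions of all 8 lists, with 100 the highest. Spearman correlations of these percentiles over members were 0.641 to 0.852 between the 2 lists of a group (4 pairs), 0.585 to 0.775 between wild type and KO of a stage (8 pairs) and 0.47 to 0.558 between ES and EB (16 pairs). Members are not independent, and this is a description. In all 8 lists, 104 members (1.47%) were in the highest 10% and 1262 (17.8%) in the highest 50%, while 12 were always in the lowest 10%. Members of high rank were narrower: the median width was 6059 bp at a mean percentile up to 20, 4629 bp from 40 to 60 and 3901 bp above 80.

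The most constantly high score belonged to Sntg1, a syntrophin of the dystrophin complex (chr1:9298130-9300997), with percentiles of 99.3 to 99.9 in the 8 lists and H3K4me1 in none. Pgr had 99.2 to 99.8 and Slc6a15, an amino acid transporter of neurons, 99.2 to 99.8. Ntrk2, the receptor of brain-derived neurotrophic factor, had 98.8 to 99.9, and Kif26b, a kinesin, the same range. Sh3rf3, Tmem229a, Ppp1r3g, Tmem178b and a locus at Thrb were the others of the first 10, and Wnt2 had 97.7 to 99.8. The stage differences in length at Sntg1, Pgr, Slc6a15, Sh3rf3, Tmem178b, Ntrk2 and Kif26b were between -0.10 and 0.09 on the log2 scale, and none was called. Among classes, Wnt, Fgf and Bmp ligands had the highest median percentile (68.8), led by Wnt2, Wnt16, Wnt7a and Bmp3, followed by ion channels (67.4), led by Kcnj2, cytochrome P450 enzymes (65.7), led by Cyp4v3, and replication proteins (62.6), led by Orc2. Replication-dependent histones (21.4), pluripotency genes (21.4) and cytosolic ribosomal proteins (34.2) had low ones.

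By stage, 701 members (9.91%) had higher percentiles in all 4 EB lists than in any ES list, beside 9.59% of all 8562 regions, and 632 (8.94%) had lower ones, beside 9.57% of all. The member shares were near those of all regions. Of the 1490 distal regions 8.05% were higher and 12.6% lower in EB, and the difference from members was not tested. Percentiles are ranks among the 8562 regions, of which members are 82.6%. Lower ranks of distal regions in EB therefore raise those of members by construction. Reep3, which shapes the endoplasmic reticulum, went from percentiles of 3.96, 4.24, 16.9 and 1.42 in ES to 81.5, 83, 97.9 and 99.5 in EB. Polr3g, a subunit of RNA polymerase III that is high in pluripotent cells, had 0.934 to 16.8 in ES and 80.9 to 92.3 in EB, and Megf11 0.164 to 19.7 and 79.2 to 96.6. In the other direction, Plxna4, a semaphorin receptor, had 94.3 to 99.2 in ES and 4.54 to 31.8 in EB, Dsp, the desmosome protein desmoplakin, 96.4 to 99.3 and 0.794 to 35.1, and Jun, a subunit of AP-1, 85.9 to 93.5 and 5.83 to 16.7. Wnt, Fgf and Bmp ligands had median percentiles of 84.7 in ES and 61.2 in EB, and cytosolic ribosomal proteins 23.9 and 44.7.

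Rank and length moved in opposite directions at many members. Of the 1066 members longer in ES, 280 had non-overlapping percentiles that were higher in EB and 59 had them higher in ES. Of the 812 longer in EB, 68 ranked higher in EB and 171 in ES. For the 5194 members without a stage call, the counts were 353 higher in EB and 402 higher in ES. These counts were not taken for all regions tested, and whether the pattern is particular to members was not tested. Reep3 covered 6214 to 7068 bp in ES and 2860 to 4172 bp in EB, and was thus shorter where its score ranked higher. Dsp covered 2956 to 3589 bp in ES and 5619 to 7728 bp in EB, again the reverse of its rank. At Adamts6 both were higher in EB, with percentiles of 0.0467 to 12.4 in ES and 62.3 to 95.9 in EB. Length and score come from the same peaks, so this describes the lists and is no independent test.

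Genotype was compared within stages. In ES cells, limma called 0 members in either direction after adjustment. It gave 484 members (6.84%) an unadjusted p under 0.05, beside 7.63% of all regions tested. In EB it called 6 members longer in KO (0.0848%), beside 0.128% of all regions tested, and 24 longer in wild type (0.339%), beside 0.397%. For the difference of the KO effect between EB and ES it called 0. It gave 879 members (12.4%) an unadjusted p under 0.05, beside 13.1% of all regions tested. Without centring, however, it called 1211 members with a lower KO effect in EB. The EB counts moved with the libraries fitted. There were 0 in both directions without EB wild-type replicate 1 and without EB wild-type replicate 2, with the library series as a term, and without the libraries of the other series. Leaving out an EB library leaves its group with 1 library, which is assumed to vary like the others. The sizes stayed close: at the 24 members the median log2 difference of KO and wild type was -1.29 with all libraries, -1.2 without EB wild-type replicate 1 and -1.23 without replicate 2, while the median SE went from 0.17 to 0.21. At the 6 members it was 1.21, 1.18 and 1.2. Both sets were chosen by this difference in these libraries, so sizes that stay close are no separate support for it. Without ES KO replicate 1 or 2 there were 0 longer in KO and 1 longer in wild type, without EB KO replicate 1 there were 12 and 88, and without EB KO replicate 2 there were 18 and 100. Without ES wild-type replicate 1 or 2 they were 3 and 13 each. Before centring, the median covered length of members was 2942 and 2828 bp in ES wild type, 3326 and 3103 bp in ES KO, 3496 and 3807 bp in EB wild type and 2518 and 2767 bp in EB KO. Without centring, 1734 members were longer in wild-type EB and 6 in KO, so that the direction counts rest on the centring. The share of all regions tested was not taken for the fits without centring.

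Lpar4, a receptor of lysophosphatidic acid on chromosome X (chrX:106917207-106924525), had the largest difference. In EB it had 4143 and 7152 bp under peaks in wild type and 908 and 1023 bp in KO, and in ES cells 1153 and 948 bp in wild type and 1477 and 1056 bp in KO (log2 KO minus wild type in EB -2.02 ± 0.24, adjusted p = 0.0276). Morc2a, a chromatin ATPase (chr11:3645893-3652845), had 5516 and 5463 bp in EB wild type against 1282 and 1370 bp in EB KO, with 4972 to 6766 bp in the 4 ES lists (-1.57 ± 0.15, adjusted p = 0.00956). Nampt, which makes the precursor of NAD, had 5387 and 6479 bp against 1396 and 1973 bp (-1.35 ± 0.18, adjusted p = 0.0289). Of the 6 longer in KO, Sh2d4a had 2452 and 2930 bp in wild type and 4774 and 4557 bp in KO (1.28 ± 0.17, adjusted p = 0.0289). Rbp4, the retinol carrier, had 2199 and 2701 bp against 3567 and 4244 bp (1.15 ± 0.15, adjusted p = 0.0289). Bcl11b, a zinc finger factor of T cells and neurons, had 5078 and 5091 bp against 6755 and 6726 bp (0.89 ± 0.15, adjusted p = 0.0489). The KO and wild-type lists of EB did not overlap at these 6 genes. Mos, Cntn4, Mylk, Atp9b, Mgat4a, Scube1 and Plxna3 were the others of the first 10 longer in wild type, and Atp5mpl, Dnah6 and Bdkrb2 completed those longer in KO. Bcl11b and Bdkrb2 lie on chromosome 12 and Dnah6 on chromosome 6. The median difference of KO and wild type in EB over all members was 0.12 on each of these chromosomes. It was 0.04 on chromosome 19, which holds Rbp4, and 0.30 on chromosome 8, the highest of the autosomes. On chromosome X, which holds Lpar4 and Plxna3, it was -0.32, below every autosome. Of the 24 members longer in wild type, 4 lay on X, which holds 217 of the 7072 members. With each library centred within each chromosome, the median differences were 1.1 at the 6 members and -1.21 at the 24. Of these, 2 and 18 stayed called. Over both stages, 91 members (1.29%) had higher score percentiles in all 4 KO lists than in any wild-type list, beside 1.32% of all regions, and 87 (1.23%) lower ones, beside 1.19%.

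Length differed between chromosomes, and X, 6, 8 and 12 are described here. On chromosome X, 217 members held 24.6% of its genes, against 28.4% to 50.8% on the 19 autosomes, and chromosome Y had none. Of the X members 28.6% were longer in ES, against 5.8% to 18.4% on autosomes, and 3 of the 10 with the largest difference toward ES (Pola1, Klhl34, AA414768) were X-linked. The median covered length of X members over that of autosomal members was 0.7 and 0.665 in ES wild type, 0.728 and 0.724 in ES KO, 0.607 and 0.752 in EB wild type and 0.547 and 0.539 in EB KO. The X value was lowest in both EB KO libraries, and the 2 EB wild-type libraries, which belong to different library series, were far apart. On chromosome 6, 22% of 345 members were longer in EB, against at most 14.2% on the other autosomes, and the median stage difference was 0.18. On chromosome 8 the median difference of KO and wild type in EB was 0.30, with centred medians of 0.29 and 0.31 in EB KO and 0.05 and 0.06 in EB wild type, and 0.19 and 0.18 in ES KO against 0.11 and 0.11 in ES wild type. On chromosome 12 the 4 KO libraries also lay above the 4 wild-type libraries, with centred medians of 0.07 and 0.01 in EB KO, -0.15 and -0.07 in EB wild type, 0.04 and 0.05 in ES KO and -0.04 and -0.09 in ES wild type. The median difference of KO and wild type in EB was 0.12 there, as on chromosome 6. With each library centred within each chromosome, an alternative chosen after the data had been seen, 773 members were longer in EB and 1033 in ES, of which 719 and 973 were among the calls above. In EB 3 were then longer in KO and 19 in wild type, of which 2 and 18 were among the 6 and 24 called above.

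**Figure D4:**
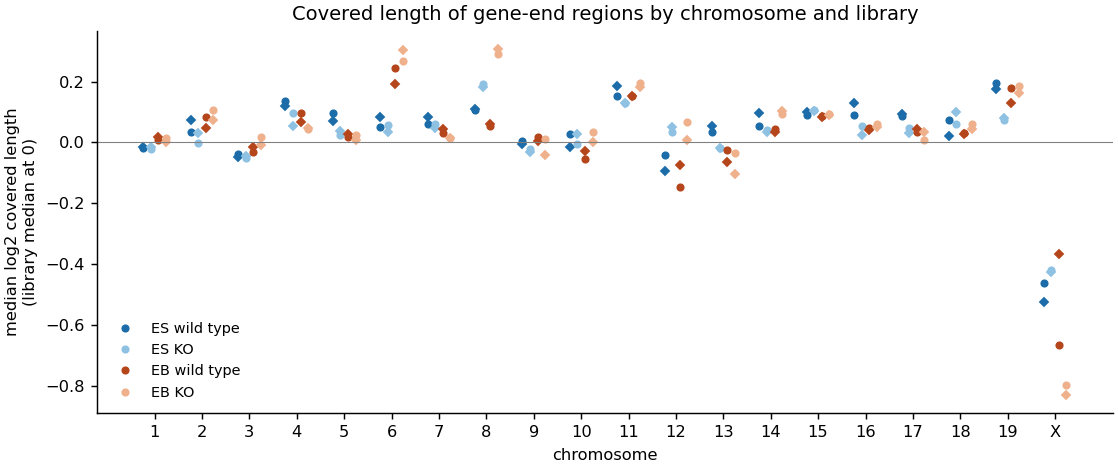
Median log2 covered length of gene-end regions on each chromosome (x) in the 8 H3K4me2 libraries (y, each library's median over all regions of the 8 lists at 0). Circles are replicate 1 and diamonds replicate 2. The EB libraries lie above the ES libraries on chromosome 6, the KO libraries above wild type on chromosome 8, and the EB KO libraries lowest on chromosome X.

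H3K4me1 was called at 27.7% and 24.6% of members in the ES wild-type libraries, 23.8% and 24.1% in ES KO, 21.5% and 18.9% in EB wild type and 10.4% and 8.07% in EB KO. At distal regions of all 8 H3K4me2 lists the shares were higher in each library, from 18.1% in EB KO replicate 2 to 41.3% in ES wild-type replicate 1. The difference was -13.5 percentage points on average (SD 1.9, n = 8 libraries), and members were lower in 8 of 8 libraries. The exact sign-flip permutation test gave p = 0.00781, the smallest that 8 libraries allow. This test compares the same sets of regions in every library, so it measures agreement over libraries and not the spread among regions. Gene-end regions found in 1 to 7 H3K4me2 lists had H3K4me1 about as often as members, with a mean difference of -0.09 points (range -2.48 to 2.84 over the 8 libraries, exact permutation p = 0.898), although with an H3K4me1 peak over at least 50% of the region members were lower in 8 of 8 (-5.13 points, exact permutation p = 0.00781).

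KO minus wild type was -2.23 points in ES and -11 points in EB, and no KO library reached a wild-type library of its stage. The exact permutation test within a stage gives p = 0.333 for each, the smallest that 2 against 2 libraries allow. Over both stages together the mean difference was -6.6 points (exact permutation p = 0.0556, again the smallest the design allows). The H3K4me1 lists of EB KO were themselves shorter: the ratio of KO to wild type in EB was 0.457 for members, 0.586 for distal regions, 0.602 for the other gene-end regions and 0.546 for the number of peaks in the list. With H3K4me1 lists cut to equal length, the EB difference at members was -1.46 points, and with at least 50% of the region covered it was -2.51 points. With that coverage the ES difference turned to 0.332 points.

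**Figure D5:**
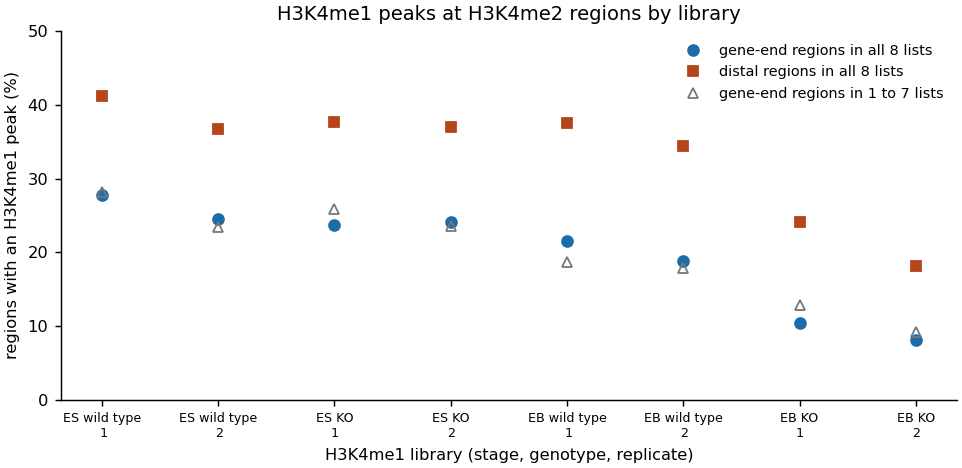
Share of regions with an H3K4me1 peak (y, percent) in each of the 8 H3K4me1 libraries (x), for gene-end regions of all 8 H3K4me2 lists, distal regions of all 8 lists and gene-end regions of 1 to 7 lists. Distal regions lie above both gene-end sets in every library, and all 3 sets are lowest in the EB KO libraries.

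Across libraries, 2951 members (41.7%) had an H3K4me1 peak in none of the 8 lists, and 86 (1.22%) in all 8. Their median widths were 3940 and 6085 bp, and a wider region meets an H3K4me1 peak more easily. Promoters of the first had a median of 22 CpG, and those of the second 13, with an ETS core in 21.8% of 2316 and 3.51% of 57. Among members with H3K4me1 in all 8 lists, Col14a1, a fibril-associated collagen, Tmem178b, Wnt2, Wnt16 and Tmtc1 ranked highest by score. Col14a1 covered 3081 to 3723 bp in the 8 H3K4me2 lists, with percentiles of 96.5 to 99.7. Sntg1, Tmtc2, Rnf150, Pde5a, a cGMP phosphodiesterase, and B3gat2 ranked highest among those with H3K4me1 in none. Members at divergent pairs lacked H3K4me1 in all lists in 51.6%, and those with a single gene in 41.1%. Of members with a mean percentile above 80, 30.5% had no H3K4me1 in any list, against 39% to 44.8% in the lower classes.

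Peaks of the PRDM16 antibody overlapped 20 to 73 members per list (0.283% to 1.03%), and 6856 members had none in any list. The shares were 0.354% and 0.297% in ES wild type, 0.65% and 0.58% in ES KO, 0.283% and 1.03% in EB wild type and 0.438% and 0.325% in EB KO, so that KO libraries were within or above the range of wild type. The mean difference over both stages was 0.00707 percentage points, KO minus wild type (exact permutation p = 1). In all 8 lists, KO included, 4 members had such a peak, at Brox, Tmem267, Apool and the far end of Lars2. The Lars2 region (chr9:123461467-123462510, 1044 bp) and the Apool region (chrX:112370548-112371382, 835 bp) were among the narrowest, and both had H3K4me1 peaks in all 8 lists too. Gm40369, an 848 bp region, had PRDM16 peaks in 6 lists and Fcgr3, an immunoglobulin receptor, in 5.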

How the data were processed

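CUT&RUN libraries of H3K4me2, H3K4me1 and PRDM16 in wild-type and Prdm16 KO ES cells and day 6 EB were analysed from 24 peak lists, 1 per library, with groups and replicate numbers taken from the sample titles. Each deposited list holds the position and a score per peak as the authors made them. No label or header names the unit of the score, which served for ranking inside a list alone. The submitters' processing notes name mm10 as the build and list HOMER 4.10, deepTools, MACS2, bedtools, SAMtools 1.5 and Bowtie2 without their roles. Whether duplicates were removed or a control was used is not given there, and more or longer peaks can come from depth as well as from the mark.

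The members, gene classes and tests were chosen with earlier results of these data known. Genes, starts and promoter sequences came from RefSeq tables of GRCm38.p6, which carry no exons here. Covered length per region was tested with limma 3.58.1 (lmFit, eBayes; R 4.3.3) on log2 values of the 8562 regions of all 8 lists, with group means and contrasts for stage, KO in each stage and their difference, at an adjusted p of 0.05. The script was tested on simulated data. Shares were compared over libraries with two-sided exact permutation tests, in Python 3.11.15. The tested regions have a peak in every list, so a complete loss of a peak is outside this comparison. Genes named in the text are the 10 widest members, the 10 with the highest lowest percentile, up to 10 per contrast and direction by size among those called, up to 4 per class by rank, and the extremes of H3K4me1, PRDM16 and rank difference. Rpl36a, Rpl5, Rps3a1, Rps27l and Mcm3 were named after their values were seen.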

Additional observations from a re-analysis of the deposited data

Results flagged for a closer look

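In 5 quantities, both KO lists lay on one side of both wild-type lists in ES cells and on the other side in EB, with 2 libraries in each group. The median H3K4me2 covered length of the members was 330.0 bp longer in KO than in wild type in ES cells, and in EB the difference was -1009 bp, so that the KO effect in EB minus that in ES cells was -1339 bp. The median share of a region under a peak differed by 8.70 percentage points in ES cells and by -23.99 in EB, which is -32.7 for EB minus ES. The number of members with more than 1 peak differed by -41.5 in ES cells and by 198.5 in EB, which is 240.0 for EB minus ES. Gene starts under a peak differed by 2.47 percentage points in ES cells and by -8.69 in EB, which is -11.2 for EB minus ES. The median covered length on the X over that on the autosomes differed by 0.0435 in ES cells and by -0.137 in EB, which is -0.18 for EB minus ES. The difference between the stages was not tested for these 5 quantities, which were all read from the same 8 lists and are not independent of each other. Replicate 2 of ES KO and replicate 2 of EB wild type belong to another library series, so the series is in part aligned with this pattern. In EB wild type the X ratio was 0.607 in replicate 1 and 0.752 in replicate 2. The part of the series was not tested. These are lengths and counts as called, before each list was centred on its own median.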

How the results depend on the processing

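The number of members was 6936 with a gene window of 1000 bp, 7461 with 10000 bp, 7107 with peaks within 1000 bp merged and 5501 at equal list lengths. It was 3241 with the higher-scoring 50% of each list and 3161 where peaks had to cover at least 50% of a region, and 7111 to 7397 with a library left out. The stage counts without a library were 417 to 855 members longer in EB and 643 to 1141 longer in ES. Without both libraries of the other series they were 169 and 335, and quantile normalization, no centring, the longest peak, gene-end regions alone, library series and the chromosome settings kept them within 1.5 times. The 20 members named by stage (17 in the fit without chromosome X) kept their direction and call under each setting fitted on all 8 libraries. Their direction was also kept without the other series. They were named for the largest changes among the calls, so nothing follows from them for the remaining calls. Replicate numbers did not pair libraries (correlations of deviations -0.031 to 0.022), and with them as a replicate block 761 members were longer in EB and 1028 in ES, and in EB 0 were longer in KO and 2 in wild type.

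For KO in EB, calls longer in KO and in wild type ranged from 0 to 18 and 0 to 100 without a library. They were 15 and 34 with quantile normalization, 5 and 12 by the longest peak, 3 and 19 centred within chromosomes, 0 and 0 with the series term or without the other series, and 6 and 1734 without centring. Without centring there were also 6 members longer in KO in ES, and 1211 with a lower KO effect in EB. For KO in ES and for the difference of the KO effect, the count was 0 with each library left out.

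H3K4me1 at members minus distal regions stayed between -14.1 and -10.3 points under the 4 other settings, each at exact p = 0.00781, and between -14 and -13.1 without a library. Against gene-end regions of 1 to 7 lists it was -0.509 to 0.251 without a library, -5.13 with 50% coverage and 0.456 within 1000 bp of the centre. In that comparison it was 0.197 without ES KO replicate 1, 0.251 without EB KO replicate 1 and 0.0523 without EB KO replicate 2. KO minus wild type was -7.38 to -5.81 without a library, and in ES alone 0.332 with 50% coverage. For the PRDM16 antibody, wild type minus KO was -0.00707, with 0.0424 within 1000 bp of the centre and -0.194 to 0.18 without a library. The cause of these changes was not tested. Read depth and the scale of the score are unknown, and 2 libraries per group limit every comparison of genotypes.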
